A study of Homo sapiens with 8 samples.

Results

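The measurements are of total RNA from KM-H2, an established cell line of Hodgkin lymphoma, a B-cell malignancy, after transduction with a sponge against miR-155 or with the vector alone. Cells of the empty vector population (EV total) carried the plain pMSCV-PIG retroviral vector, and those of the sponge population (miR-155-sp total) carried the same vector with a transcript that holds binding sites for miR-155 and is meant to capture it. Both populations were sorted for the GFP of the vector and were not single clones, so the sponge is the one stated difference between them. From each population 1 RNA was taken and labelled once with Cy3 and once with Cy5, giving 4 of the 8 sample records of the series, the other 4 being RNA pulled down with Argonaute 2 (Ago2-IP). No treatment other than the transduction is given, and the ages and passages of the cultures are not given in the sources used here.

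The question is how much the total level of transcripts differs in cells that carry the sponge. The share of miR-155 that the sponge captured was not measured on these arrays. Each value below is a log2 signal of a probe on a 44k human whole genome array, and each change is the miR-155-sp value minus the EV value within 1 dye. The 2 labellings are technical. There was 1 RNA sample per group, so no test could be made, and none of the differences below was checked in a second culture. A change counts as called where the probe was at least 1.3-fold higher, or at least 1.3-fold lower, in both labellings. The EV and miR-155-sp RNAs lay on different arrays of 1 slide, so that array and cell population cannot be told apart. In such a bulk sample, fewer cells of a type and less RNA per cell cannot be told apart either.

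A miRNA is a short RNA that guides an Argonaute protein to mRNAs with a stretch complementary to its seed, and bound mRNAs are degraded or translated less. MiR-155 is made from MIR155HG (also called BIC), is abundant in Hodgkin and Reed-Sternberg cells, and is known as an oncogenic miRNA of B cells. The mature forms, from RefSeq on GRCh38.p14, are shown because the sponge is directed at the first of them. The seed, bases 2 to 8, is in capitals, and both lie on the plus strand, the 5p form at chr21:25573983-25574006 and the 3p form at chr21:25574022-25574043.
hsa-miR-155-5p: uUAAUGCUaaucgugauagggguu
hsa-miR-155-3p: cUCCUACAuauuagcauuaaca

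Total RNA of the 2 populations differed little. Of the 16065 deposited probes, 14493 (90.2%) had a mean change of less than 1.3-fold, and the median size of the change was 0.13 on the log2 scale, against a median SD between the 2 labellings of 0.11. The called probes were 149 higher in miR-155-sp (0.927% of all) and 355 lower (2.21%), while 32 probes were past 1.3-fold in opposite directions in the 2 dyes. At 2-fold in both labellings 1 probe was higher and 3 were lower. Across probes, which are not independent replicates, the changes in Cy3 and Cy5 correlated with Pearson's r = 0.45 and Spearman's rho = 0.44. The changes were wider in Cy5, with a median size of 0.18 against 0.11 in Cy3. Gene spots well above background made up 60.6% (EV) and 61.9% (miR-155-sp) in Cy3 and 42.6% and 38.9% in Cy5, so the dimmest of the 4 channels was miR-155-sp in Cy5.

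**Figure D1:**
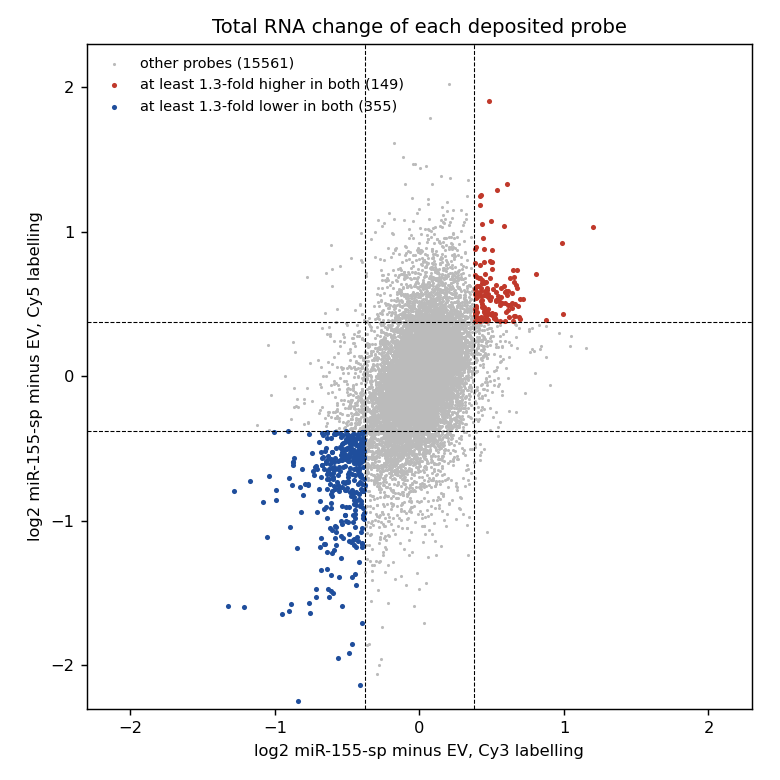
Log2 miR-155-sp minus EV of each deposited probe in total RNA, Cy3 labelling on the x axis and Cy5 labelling on the y axis, with dashed lines at 1.3-fold. The 149 probes higher in both labellings are red and the 355 lower in both are blue, and the cloud is wider along Cy5 than along Cy3.

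At baseline the cells carried the transcripts of Hodgkin and Reed-Sternberg cells and few of those of mature B cells. Of 36 marker genes of Hodgkin and Reed-Sternberg cells on the array, 27 had a probe well above background in all 4 total RNA channels, 4 in some and 5 in none. TNFRSF8, which codes for CD30, the defining surface antigen, read 11.90 (Cy3) and 11.66 (Cy5) in EV and 11.77 and 11.66 in miR-155-sp. The groups overlap. CCL17 (TARC), the chemokine that draws T cells, read 10.495 and 10.24 in EV, and 10.44 and 10.25 in miR-155-sp. For MIR155HG, the host transcript of miR-155, the values were 9.67 and 9.73 in EV, and 9.92 and 9.81 in miR-155-sp. Its 2 miR-155-sp values are both above the 2 EV values, by 0.25 and 0.09, under the 1.3-fold limit. CD40, CD70, CD83, TRAF1, BATF3, JUNB, LGALS1 and FSCN1 were also well above background in all 4 channels, whereas CCL22, CD274 (PD-L1), FCER2, GATA2 and IL13 were not in any.

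Of 25 B-cell identity genes on the array, 7 were well above background in all 4 channels (BLK, CD53, CD79A, LYN, SPIB, SYK and TCL1A) and 8 in none. The latter included PAX5, the factor that commits cells to the B lineage, the surface receptors CD22 and CD72, the antigen receptor subunit CD79B, and BTK, BANK1 and FCRL1. MS4A1, which codes for CD20, was well above background in 1 of the 4 channels. CD79A, the partner of CD79B, read 11.21 and 11.46 in EV, and 11.05 and 11.22 in miR-155-sp. Plasma-cell genes were above in all 4 channels for 5 of 11, among them XBP1, PRDM1 and IRF4, while CD38 was above in none. Of markers of other cells, 4 of 20 T-cell and NK-cell genes were above in all channels (CD2, CD4, GATA3 and ZAP70), 4 of 14 myeloid genes (CSF1R, CEBPA, CEBPB and ITGAM) and 2 of 14 stromal, epithelial and endothelial genes (CDH1 and KRT8). In these 3 lists 7, 2 and 6 genes were above in some channels, among them CD3E (2 channels), CD14 (3) and KRT18 (2). Another 9, 8 and 6 were above in none, among them LCK, LYZ, MPO, EPCAM and DCN.

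**Figure D2:**
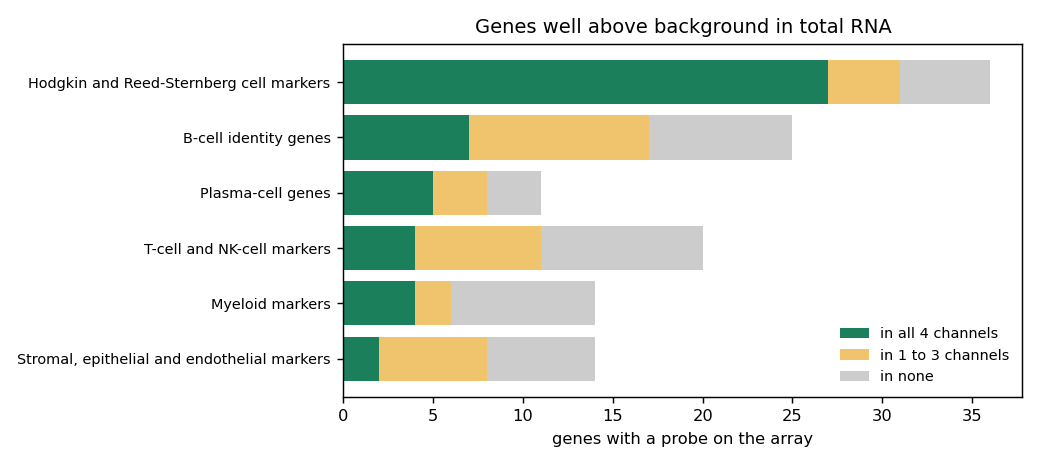
Number of genes of each marker list (x axis) with a probe well above background in all 4, in 1 to 3, or in none of the total RNA channels. The Hodgkin list has the most genes above in all channels (27 of 36), and in the B-cell list 7 of 25 are.

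None of the B-cell identity, plasma-cell, T-cell and NK-cell or stromal probes was called, against 0.927% of all probes higher and 2.21% lower. Among 37 Hodgkin marker probes 1 was called. This was CD80, the B7 costimulatory ligand for CD28 and CTLA4, at 8.88 (Cy3) and 9.03 (Cy5) in EV and 8.21 and 8.12 in miR-155-sp. Its EV values lie above both miR-155-sp values, a difference of −0.66 and −0.92. A second CD80 probe, above background in 3 of 4 channels, changed by −0.06 and −0.70. Of the myeloid markers, CSF1R, the receptor of the growth factor M-CSF and a gene that Hodgkin cells are known to express outside its lineage, read 11.27 (Cy3) and 11.13 (Cy5) in EV and 10.87 and 10.55 in miR-155-sp, and was lower by 0.39 and 0.58. The 5 myeloid probes together had medians of −0.14 (Cy3) and −0.14 (Cy5), with 2 higher and 3 lower in both labellings. The median over these probes of the change averaged over both dyes, called the dye-averaged median below, was −0.14, against −0.0955 with normexp background correction and −0.45 over the 7 probes above background in at least 2 channels without a filter on agreement of the dyes. Under neither of these alternatives did both labellings pass the limit of 0.1 that is used for lists below.

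The genes that miR-155 is known to act on did not move as a group. In a list of 57 genes known as targets from reporter or similar assays, 62 probes of 48 genes were measured, with median changes of −0.01 (Cy3) and −0.04 (Cy5). Of these, 14 were higher and 22 lower in both labellings, and 1 was called higher and 3 lower. Over all probes 32.5% were higher and 33.7% lower in both labellings, and 0.927% were called higher and 2.21% lower. The one called higher was RICTOR, a subunit of the mTORC2 complex, at 5.26 (Cy3) and 4.95 (Cy5) in EV and 5.69 and 6.20 in miR-155-sp, which was above background in 2 of the 4 channels. The 3 called lower were CSF1R, SATB1, a chromatin organizer, and ZNF652, a zinc finger repressor. SATB1 read 9.62 and 9.70 in EV, and 9.14 and 8.90 in miR-155-sp. INPP5D (SHIP1) and SOCS1, which restrain phosphoinositide and cytokine signalling and are much studied targets, changed by 0.10 and 0.08 and, for the 2 SOCS1 probes, by −0.34 and −0.35 and by −0.12 and −0.18.

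The 6 genes that the study selected for follow-up from Ago2-IP RNA of another line, ST486, had 10 probes and none was called. These 10 probes are also part of the target list above. Their medians were 0.02 (Cy3) and 0.00 (Cy5). JARID2, a partner of the Polycomb complex PRC2, read 8.91 (Cy3) and 9.0 (Cy5) in EV and 9.22 and 9.57 in miR-155-sp. Both miR-155-sp values exceed both EV values, by 0.31 and 0.56, and the Cy3 change is under the limit. DET1, a component of a ubiquitin ligase, read 9.71 and 9.65 in EV, and 9.96 and 10.08 in miR-155-sp, and was higher by 0.25 and 0.43. For TBRG1, whose protein-coding transcript is NIAM, a regulator of p53, the probe that the study lists for NIAM changed by 0.00 and −0.03. The other TBRG1 probe, which per the study also detects a non-coding transcript of the locus, changed by 0.04 and −0.31. The TRIM32 probes, for a ubiquitin ligase, changed by −0.02 and 0.25 and by 0.24 and −0.03. For PSIP1, a chromatin-bound coactivator, the changes were −0.05 and 0.06 and −0.07 and −0.13, and for HOMEZ, a homeobox gene, 0.17 and 0.03 and −0.20 and −0.20. TBRG1, TRIM32 and PSIP1 each show the 2 dyes in opposite directions at one probe at least, and the HOMEZ probes go opposite ways.

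A further list holds the genes that the study took from Ago2-IP RNA of ST486, a Burkitt lymphoma line made to carry miR-155. Of its probes, 44 were measured here. They had medians of −0.03 (Cy3) and −0.02 (Cy5). Of them, 12 were higher and 19 lower in both labellings (27.3% and 43.2%, against 32.5% and 33.7% of all probes). Called lower was 1, against 2.21% of all. This was TCF4, an E protein of the B lineage, at 12.03 (Cy3) and 12.05 (Cy5) in EV and 11.62 and 11.45 in miR-155-sp. In the Ago2-IP RNA of the same 2 populations, hybridized to the same arrays in the other dye, the same 44 probes had medians of −0.30 and −0.33.

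The genes of the miRNA machinery had 25 probes with medians of 0.02 (Cy3) and 0.02 (Cy5), and 4 were called, all lower and 2 of them probes of 1 gene, DICER1, against 2.21% of all probes. AGO2, the protein used for the pull-down, read 10.499 (Cy3) and 10.04 (Cy5) in EV and 10.47 and 9.93 in miR-155-sp, and its values overlap between the populations. DICER1, the nuclease that cuts the miRNA out of its hairpin, was lower at both of its probes. The brighter DICER1 probe, above background in all 4 channels, read 9.20 and 9.76 in EV, and 8.71 and 9.35 in miR-155-sp. The other, above in 3 channels, read 7.19 and 7.70 in EV, and 6.70 and 5.79 in miR-155-sp, a much larger change in Cy5 than in Cy3. TUT4, which adds uridines to miRNA precursors, was lower by 0.67 and 0.41 with 3 channels above background. Of the 3 probes of TNRC6B, a GW182 protein that recruits the deadenylases, 1 was called (−0.88 and −0.59, 2 channels above background) and the others changed by −0.36 and −0.22 and by −0.22 and −0.20. AGO1, AGO3, DROSHA and XPO5 had no called probe.

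Of the 48 gene lists measured, 5 had a median at least 0.1 from 0 in the same direction in both labellings, against a median of 0.00 in both dyes over all probes. The DNA replication and histone lists were higher in miR-155-sp, and the MHC class II, hypoxia and myeloid lists were lower. The labelling spike-ins, control RNAs added to each sample, had a dye-averaged median of 0.12. The histone and DNA replication lists had a similar 0.11 each, in quantile-normalized values. The spike-ins were set against the median of the deposited probes instead, so the scales differ. With channels set to a common median these lists had 0.21 and 0.15. By dye the spike-ins had medians of 0.06 (Cy3) and 0.07 (Cy5).

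**Figure D3:**
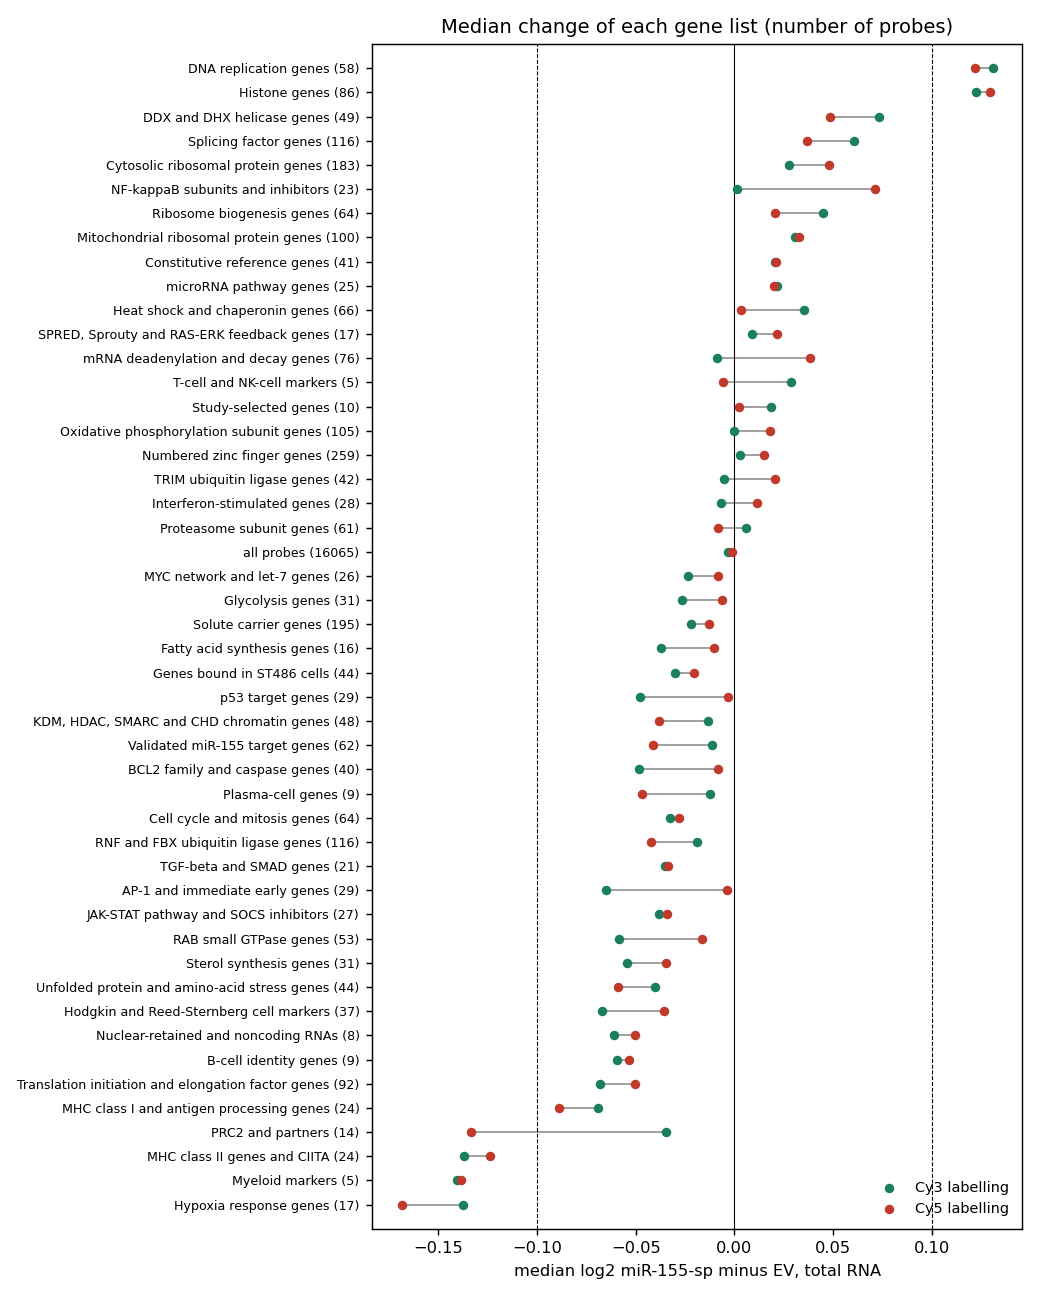
Median log2 miR-155-sp minus EV in total RNA (x axis) for each gene list with at least 5 probes, Cy3 labelling in green and Cy5 labelling in red, with the number of probes in parentheses and dashed lines at 0.1 either side of 0. Histone and DNA replication genes lie beyond the line on the right, and hypoxia, myeloid and MHC class II genes beyond the line on the left, in both dyes.

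DNA replication genes code for the complexes that load the helicase on origins, unwind DNA and copy it in S phase. Their 58 probes, for 46 genes, had medians of 0.13 (Cy3) and 0.12 (Cy5). Of these probes 34 were higher and 7 lower in both labellings (58.6% and 12.1%, against 32.5% and 33.7% of all probes). Called higher was 1, against 0.927% of all. The called gene was UHRF1, which recruits the maintenance DNA methyltransferase to newly copied DNA, at 9.47 (Cy3) and 9.54 (Cy5) in EV and 9.90 and 10.13 in miR-155-sp, a 1.42-fold mean difference with no overlap between the populations. The helicase subunit MCM4 read 10.46 and 10.37 in EV, and 10.79 and 10.82 in miR-155-sp, and was higher by 0.33 and 0.45, the Cy3 change being under the limit. Of the 8 probes for MCM2 to MCM7 and MCM10, 6 were higher and 1 lower in both labellings, the latter being MCM3 (−0.03 and −0.33). RRM2, a subunit of ribonucleotide reductase, was higher at both probes, by 0.22 and 0.64 and by 0.29 and 0.34. POLA2, a subunit of the polymerase that lays primers, was higher by 0.28 and 0.27. PCNA, the sliding clamp, and TYMS, thymidylate synthase, changed by 0.10 and 0.02 and by 0.00 and 0.00. RFC1, the large clamp loader subunit, and ORC3, of the origin recognition complex, went the other way, with −0.11 and −0.53 and −0.17 and −0.24 for RFC1 and −0.17 and −0.54 for ORC3. The dye-averaged median was 0.11, against 0.0994 with normexp and 0.118 with means over a gene's probes. In each of these the list no longer passed the limit in both labellings, though its size changed little. Cell cycle and mitosis genes had 64 probes with medians of −0.03 (Cy3) and −0.03 (Cy5) and none called.

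Histones package DNA, and the genes of the main clusters are transcribed in S phase into mRNAs that mostly end in a stem loop rather than a poly(A) tail, while the labelling of these arrays starts from poly(A). The 86 histone probes, for 68 genes, had medians of 0.12 (Cy3) and 0.13 (Cy5). Of these, 57 were higher and 8 lower in both labellings (66.3% and 9.30%, against 32.5% and 33.7% of all probes). The dye-averaged median was 0.11, and it was 0.21 when the channels were only brought to the same median, without quantile normalization. The 3 called probes were all higher, against 0.927% of all probes. H3C12, a histone H3 gene, read 10.87 (Cy3) and 11.25 (Cy5) in EV and 11.56 and 11.79 in miR-155-sp, the largest histone difference in Cy3, at 0.69 and 0.54. H1-1, a linker histone gene, read 11.499 and 10.91 in EV, and 11.91 and 11.49 in miR-155-sp. H2AC6, a histone H2A gene, read 9.37 and 9.13 in EV, and 9.76 and 9.57 in miR-155-sp. The populations do not overlap for H3C12 and H2AC6, and for H1-1 the Cy5 value of miR-155-sp is just below the Cy3 value of EV. The 68 probes of clustered genes, a split made after the values were seen, had medians of 0.16 (Cy3) and 0.16 (Cy5), with 48 higher and 3 lower in both labellings. The 18 probes for other histone genes, such as H3-3A, H3-3B, H2AZ1 and MACROH2A1, which are polyadenylated and expressed outside S phase, had medians of 0.03 (Cy3) and 0.03 (Cy5). In Ago2-IP RNA the 86 probes had medians of 0.47 and 0.33. Histone genes are near-identical copies, so a probe may bind transcripts of several of them, and the values for single genes are uncertain.

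Promoter sequences are shown for called or listed members of lists past the limit, 250 bases before to 50 bases after the start of the RefSeq gene on GRCh38.p14. For H1-1 (chr6:26017738-26018037, minus strand), H2AC6 (chr6:26123922-26124221, plus strand) and HLA-DMA (chr6:32953048-32953347, minus strand) the capitals mark CCAAT in either orientation, the box bound by NF-Y. For MCM2 (chr3:127598161-127598460, plus strand) they mark TTTCGCGC or TTTGGCGC in either orientation, E2F-type elements, here overlapping copies on both strands.
H1-1: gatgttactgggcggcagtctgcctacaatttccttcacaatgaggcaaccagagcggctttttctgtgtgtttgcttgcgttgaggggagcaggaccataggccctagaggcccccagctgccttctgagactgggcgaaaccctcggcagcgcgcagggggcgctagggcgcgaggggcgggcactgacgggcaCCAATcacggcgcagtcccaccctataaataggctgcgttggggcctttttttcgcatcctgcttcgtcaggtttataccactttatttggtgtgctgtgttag
H2AC6: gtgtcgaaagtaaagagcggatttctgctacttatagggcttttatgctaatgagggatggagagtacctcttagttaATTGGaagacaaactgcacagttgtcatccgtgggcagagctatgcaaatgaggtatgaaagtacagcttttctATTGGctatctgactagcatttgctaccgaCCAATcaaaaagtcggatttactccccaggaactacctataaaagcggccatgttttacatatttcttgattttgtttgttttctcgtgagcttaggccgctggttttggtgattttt
MCM2: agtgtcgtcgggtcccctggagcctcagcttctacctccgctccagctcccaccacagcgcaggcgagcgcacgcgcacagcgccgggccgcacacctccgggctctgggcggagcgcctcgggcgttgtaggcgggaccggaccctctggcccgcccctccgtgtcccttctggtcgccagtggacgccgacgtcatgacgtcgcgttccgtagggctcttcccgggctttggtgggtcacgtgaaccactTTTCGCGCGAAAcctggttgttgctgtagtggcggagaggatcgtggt
HLA-DMA: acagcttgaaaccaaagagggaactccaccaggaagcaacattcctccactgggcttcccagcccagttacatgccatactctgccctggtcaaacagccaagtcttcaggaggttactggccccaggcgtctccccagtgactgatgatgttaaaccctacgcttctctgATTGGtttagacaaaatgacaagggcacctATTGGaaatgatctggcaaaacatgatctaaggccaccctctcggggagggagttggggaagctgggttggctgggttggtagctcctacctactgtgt

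CCAAT was in the promoter window of 46 of 54 clustered histone genes (85.2%), 23 of 38 DNA replication genes (60.5%) and 10 of 11 HLA-D genes (90.9%), against 44.7% of the 7271 deposited genes with a promoter in the table and 39.7% of all 27305. The E2F-type element was in 10 of 54 (18.5%), 10 of 38 (26.3%) and 0 of 11, against 2.86% of deposited genes and 1.40% of all. Few members of these lists were called (3 histone probes, 1 DNA replication probe and no HLA-D probe), and a match is a description of letters, not a site in use.

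MHC class II molecules present peptides from outside the cell to helper T cells, and CIITA is the coactivator that switches their genes on. The 24 probes, for 17 genes, had medians of −0.14 (Cy3) and −0.12 (Cy5), with 3 higher and 15 lower in both labellings and none called, so that each difference is small. HLA-DRA, the alpha chain of the DR molecule, read 13.67 (Cy3) and 13.60 (Cy5) in EV and 13.51 and 13.45 in miR-155-sp. HLA-DRB1, a beta chain that pairs with it, read 15.15 and 14.97 in EV, and 14.90 and 14.76 in miR-155-sp. In both, the EV values lie above the miR-155-sp values, with changes of −0.16 and −0.15 and of −0.25 and −0.20. HLA-DPB1 changed by −0.20 and −0.43 at one probe and by −0.27 and −0.06 at the other. HLA-DMA, which loads the peptide, changed by −0.12 and −0.04 and by −0.23 and −0.40 at its probes. Over all 21 deposited probes of HLA-D genes, which include HLA-DPB2, HLA-DQA2, HLA-DRB3 and HLA-DRB4 from outside the list, 1 was higher in both labellings, HLA-DQA1 (0.10 and 0.16). That is 4.76%, and 15 (71.4%) were lower in both, against the same shares of all probes. CIITA itself changed by −0.01 and 0.09 and by 0.01 and −0.19, and its cofactor RFX5 by 0.04 and 0.19. HLA genes are polymorphic and alike, so the values of single loci are uncertain. The dye-averaged median was −0.11, and with channels set to a common median it was −0.054, under the limit.

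Hypoxia response genes, which HIF1 switches on when oxygen is short, had 17 probes for 13 genes with medians of −0.14 (Cy3) and −0.17 (Cy5). Of these, 1 was higher and 12 lower in both labellings (5.88% and 70.6%, against 32.5% and 33.7% of all probes). Called lower was 1, against 2.21% of all. BNIP3L (NIX), a receptor for the removal of mitochondria, was called, at 10.28 (Cy3) and 10.25 (Cy5) in EV and 9.76 and 9.74 in miR-155-sp, without overlap. Its second probe changed by −0.14 and −0.34. PDK1, a kinase that inhibits pyruvate dehydrogenase, changed by −0.32 and −0.26, and INSIG2, a brake on sterol synthesis, by −0.29 and −0.29. DDIT4, an inhibitor of mTOR, changed by 0.02 and 0.00. The dye-averaged median was −0.15, and with normexp it was −0.049, under the limit. Glycolysis genes, several of which respond to the same factor, had 31 probes with medians of −0.03 (Cy3) and −0.01 (Cy5) and none called.

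**Figure D4:**
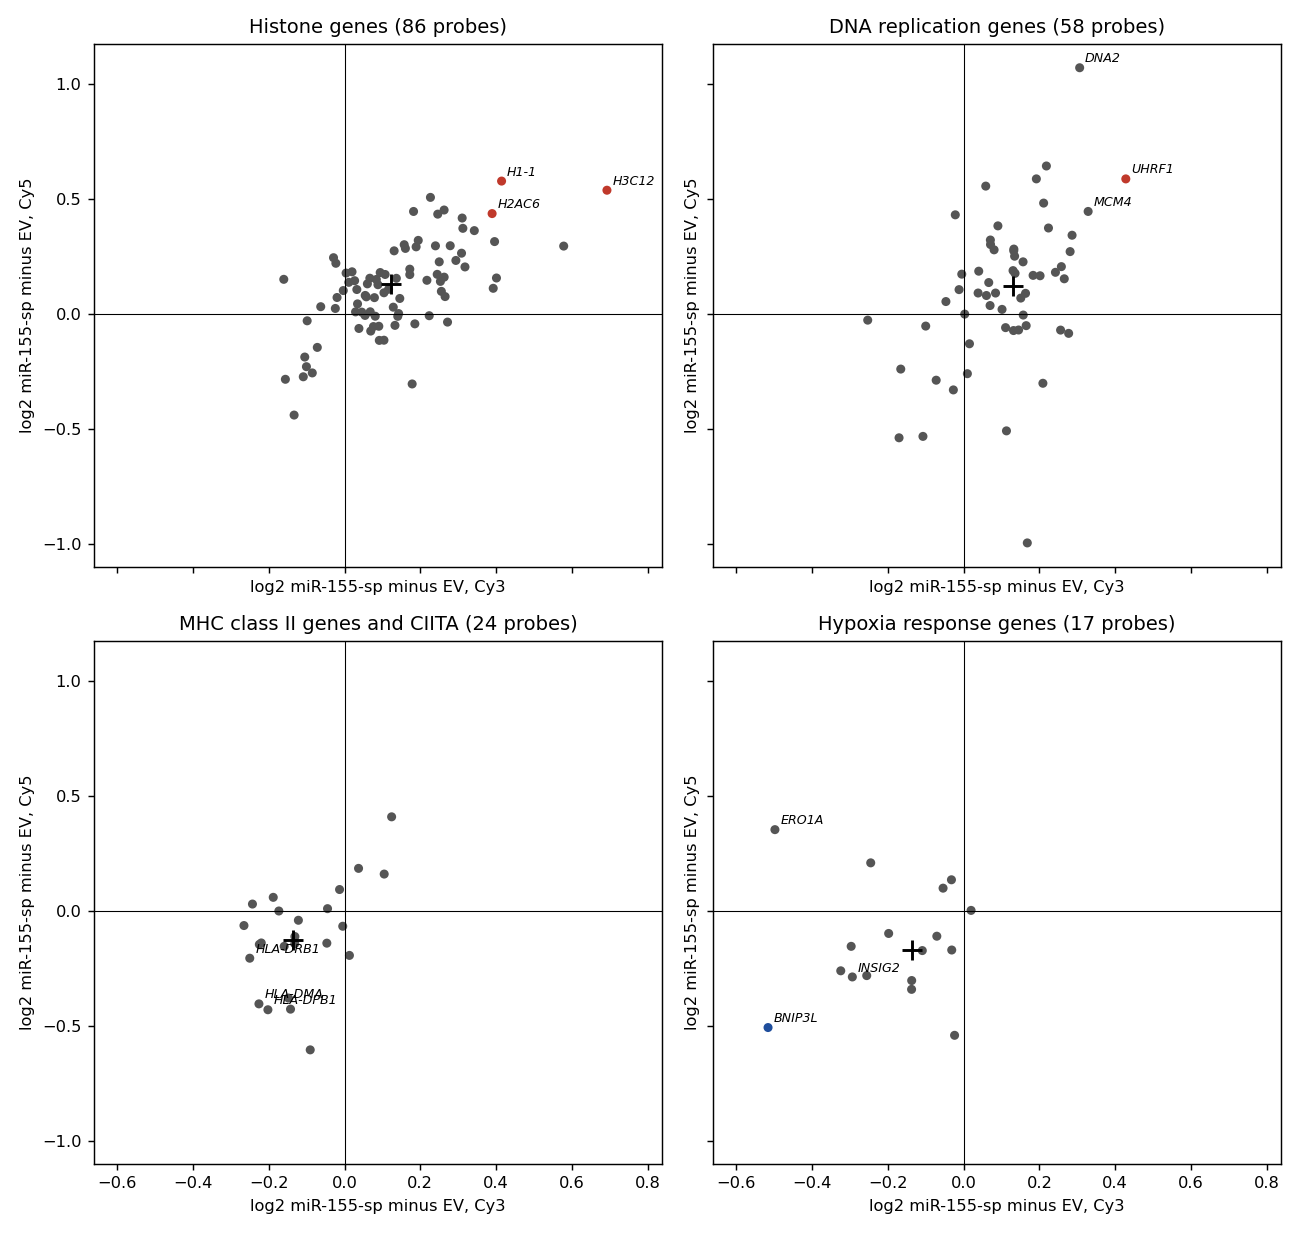
Log2 miR-155-sp minus EV in Cy3 (x axis) and Cy5 (y axis) for every measured probe of 4 gene lists, each list in a panel. Red and blue points are called higher and lower, the cross is the median, and the 3 probes with the largest smaller change are named. Most histone and replication probes lie in the upper right and most MHC class II and hypoxia probes in the lower left.

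Other groups lay nearer to 0 in the deposited values. Cytosolic ribosomal protein genes had 183 probes with medians of 0.03 (Cy3) and 0.05 (Cy5) and 5 called higher (RPL17, RPL24, RPL27A, RPS7 and RPS12), against 0.927% of all probes. Their dye-averaged median was 0.055, but with channels set to a common median it was 0.20, past the limit in both labellings. Splicing factor genes had 116 probes with medians of 0.06 (Cy3) and 0.04 (Cy5) and 5 called, all higher (against 0.927% of all), for SNRPC, SRSF6 (2 probes), HNRNPU and PTBP1. DDX and DHX helicase genes had medians of 0.07 (Cy3) and 0.05 (Cy5) and none called. Translation factor genes had 92 probes with medians of −0.07 (Cy3) and −0.05 (Cy5). Of these probes 1 was called lower, EIF3A, against 2.21% of all. Interferon-stimulated genes had 28 probes with medians of −0.01 (Cy3) and 0.01 (Cy5). Called higher was 1, SAMD9L, above background in 2 channels, against 0.927% of all. NF-kappaB subunits and inhibitors, which are active in Hodgkin cells, had medians of 0.00 (Cy3) and 0.07 (Cy5) and none called, and the JAK-STAT list −0.04 (Cy3) and −0.03 (Cy5) and none called. Of p53 target genes 3 of 29 probes were called, all lower, against 2.21% of all. They were CCNG1, FAS and SESN2. BCL2, the survival protein, changed at the called probe by −0.39 and −0.40. Both probes of AEBP2, a PRC2 cofactor, were called lower. The 14 probes of PRC2 and its partners had medians of −0.03 (Cy3) and −0.13 (Cy5), so that they passed the limit in Cy5 alone. The 41 probes of constitutive reference genes had medians of 0.02 (Cy3) and 0.02 (Cy5) and none called.

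The genes with the largest changes were single genes of varied function. Among named probes above background in all 4 channels, SNRPC, which codes for the U1 snRNP protein that helps to recognise the 5′ splice site, stood highest, at 6.73 (Cy3) and 7.11 (Cy5) in EV and 7.94 and 8.14 in miR-155-sp, a 2.17-fold mean difference. The other SNRPC probe, much brighter at 14.53 and 14.21 in EV, changed by −0.03 and 0.10. TUBA4A, an alpha-tubulin, read 8.19 and 8.88 in EV, and 9.18 and 9.81 in miR-155-sp at the called probe (1.94-fold). At its other probe, much brighter at 15.63 and 15.58 in EV, the change was −0.08 and −0.07. So for both genes the difference was at 1 of 2 probes. SRSF6, an SR protein of splicing, was higher at both of its probes, by 0.72 and 0.53 and by 0.44 and 0.48. The others of the 15 highest were DHDDS, of dolichol synthesis, PPID, a cyclophilin that works with Hsp90, H3C12, the telomere helicase RTEL1, the GABA receptor subunit GABRA3, the ubiquitin ligase TTC3, the PHD and RING finger gene PHRF1, the repair factor RAD23B, the ribosomal genes RPS12, RPL24 and RPS7, and RPL23AP32, a ribosomal protein pseudogene. Of those with other deposited probes that were not called, PPID changed there by −0.03 and 0.06, PHRF1 by 0.14 and 0.24 and RPL24 by 0.02 and −0.21. The other RPS7 probes changed by 0.16 and 0.10 and by 0.08 and 0.15. The other TTC3 probes, all brighter in EV than the called one, changed by −0.21 and −0.26, by −0.19 and −0.57 and by 0.03 and 0.24. RAD23B was called higher at 1 probe (0.46 and 0.66), lower at another (−0.38 and −0.99), and not at the third.

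C2CD4B was the lowest named gene by the smaller of its 2 changes, at 10.11 (Cy3) and 9.81 (Cy5) in EV and 9.05 and 8.70 in miR-155-sp, a 2.12-fold mean difference. SOX18, a transcription factor of vessel development, read 11.92 and 11.40 in EV, and 10.64 and 10.60 in miR-155-sp (2.05-fold). PTPN11, the phosphatase SHP2 in growth factor signalling, was lower at 2 of its 4 probes, with changes of −0.68 and −0.70 and by −0.54 and −0.54. In C2CD4B and SOX18 the populations do not overlap. APPL1, an endosomal adaptor, changed by −0.68 and −1.12, and by −0.27 and −0.28 at a probe above background in 3 channels. MYCBP2, a large ubiquitin ligase, changed by −0.65 and −1.16. PSD3, an exchange factor of ARF6, was called lower at both probes, with changes of −0.62 and −1.05 and by −0.44 and −0.89. NAP1L1, a histone chaperone, read 12.76 and 12.71 in EV, and 12.04 and 12.09 in miR-155-sp. The rest were CD80, described above, the stress kinase MAP3K20, AP4E1 of the AP-4 coat, the zinc finger gene ZNF280C, the amino acid transporter SLC38A2, the sorting nexin SNX13, and NUDT21 of the cleavage machinery. At second probes that were not called, MAP3K20 changed by 0.00 and −0.03 and NUDT21 by −0.05 and −0.14.

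**Figure D5:**
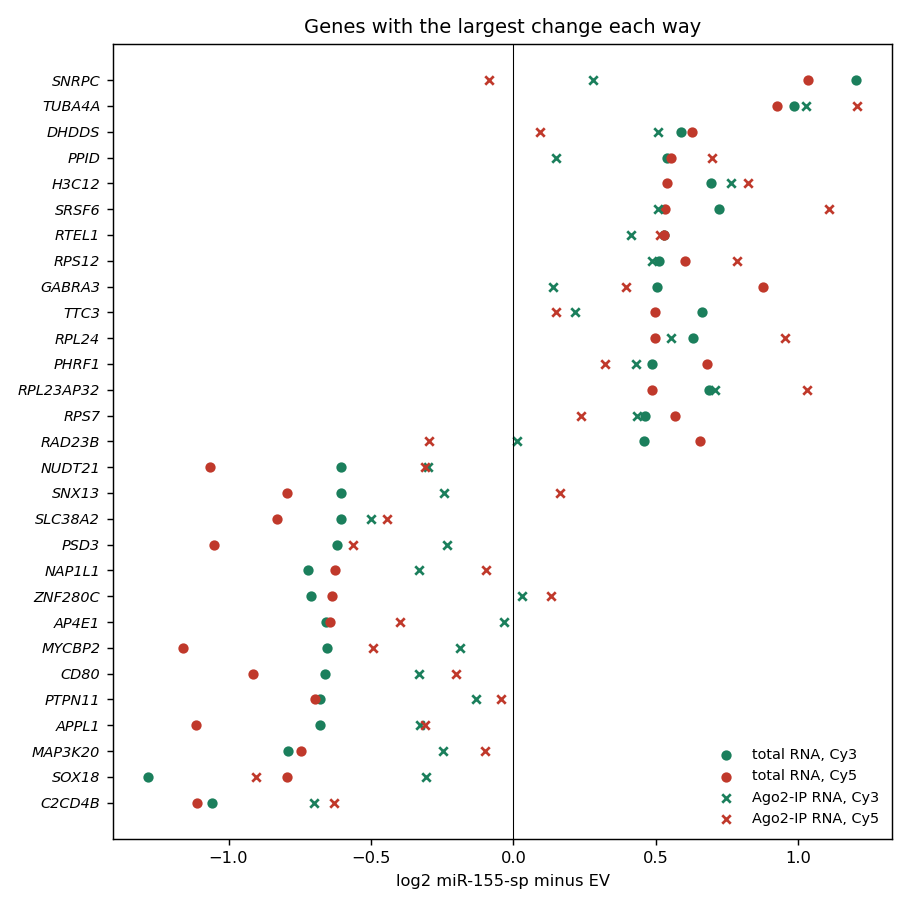
Log2 miR-155-sp minus EV (x axis) of the 15 higher and 14 lower genes named for the size of their change, 1 probe per gene, in total RNA (circles) and Ago2-IP RNA (crosses), Cy3 in green and Cy5 in red. For SNRPC the Ago2-IP values lie on both sides of 0, while for TUBA4A all 4 values lie above 0.9.

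What the called probes shared differed by direction. Of the 149 higher probes 56 (37.6%) had a gene name, against 254 of 355 lower (71.5%) and 73.8% of all. Of the higher probes 21 (14.1%) were designed on predicted RefSeq transcripts and 29 (19.5%) carried only a probe name, against 2.79% and 4.54% of all. Of the 20 highest probes above background in all 4 channels, 15 had no gene name. The lower probes were dim, with a median EV signal of 8.30 against 9.72 over all probes and 9.01 for the higher, and 56.6% of them were above background in all 4 channels, against 90.8% of all and 88.6% of the higher. Counted among the 14590 probes above background in all 4 channels, 132 were higher and 201 lower.

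The other probes of the same genes, meaning those not called in the same direction, gave a different picture for the 2 directions. Leaving out probes called the same way lowers the agreement by selection. The shares below are therefore not an independent check of the calls. The 34 other probes of 22 genes called higher had medians of 0.03 (Cy3) and −0.04 (Cy5), and 11 were higher and 11 lower in both labellings (32.4% each), near the 32.5% and 33.7% of all probes. The 125 other probes of 100 genes called lower had medians of −0.18 and −0.22, and 91 (72.8%) were lower and 8 (6.40%) higher in both labellings. At least 2 probes were called higher for 1 gene, SRSF6, and lower for 16 genes, among them DICER1, AEBP2, PSD3, PTPN11, TAF2 (all 3 of its probes), NFIB, CELF2, PRKCI and SEC23A.

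In Ago2-IP RNA, another fraction of the same cells on the same arrays, the 149 higher probes had median changes of 0.36 (Cy3) and 0.37 (Cy5), and 108 (72.5%) were higher in both labellings, against 30.3% of all. The 355 lower probes had medians of −0.15 and −0.10, and 192 (54.1%) were lower in both, against 33.6% of all. TUBA4A changed there by 1.03 and 1.21, C2CD4B by −0.70 and −0.63 and SNRPC by 0.28 and −0.09. In EV cells the log2 ratio of Ago2-IP to total signal, which uses the same EV values as the changes, had a median of 0.75 over the lower probes, −0.41 over the higher and −0.25 over all.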

How the data were processed

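Total RNA and Ago2-IP RNA of the EV and miR-155-sp cells had been hybridized to 4 arrays on 1 slide, each RNA once in Cy3 and once in Cy5, and each array held total RNA in one dye and Ago2-IP RNA of the same cells in the other. Samples were grouped by the labels, which list the 2 labellings of a sample as replicates 1 (Cy3) and 2 (Cy5). As these come from 1 RNA, each group counted as 1 sample, and no p-value or SD over samples was computed.

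Per the file headers, the authors made the spot intensity values and flags with Agilent Feature Extraction 10.7.3.1, while the submitters' processing notes name version 10.5.1.1. The authors deposited log2 values of 16065 probes, quantile-normalized with filters on detection and on agreement of the dyes within 2-fold, per the study's methods (GeneSpring). They differed by a median of 0.00056 from scanner signals quantile-normalized here over 8 channels. Such normalization removes differences in the overall amount of mRNA, and the filter on agreement removes probes with strong dye bias. The changes reported are differences of the deposited log2 values. Detection was taken from the flag for signals well above background, over 41000 probes, and the number of arrays limits the precision.

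Probes were named through RefSeq or Ensembl accessions in a RefSeq table of GRCh38.p14. Of the deposited probes 11851 (73.8%) matched, for 8757 genes, the rest being unnamed here. Since the design was made on hg18, probes are given without coordinates, and each probe of a gene is treated apart from the others. The genes named are the 15 higher and 15 lower named probes, above background in all 4 total RNA channels, with the largest smaller change of the 2 labellings, 1 probe per gene, with the called or measured members of the lists and all probes of the study's selected genes, AGO2, DICER1 and MIR155HG. Of the lower genes 1 is not reported here, which leaves 14. A list counted as shifted where its median lay at least 0.1 from 0 in the same direction in both labellings. Members and lists were chosen with earlier results of these data known. The list of tested miR-155 targets and the other lists come from general knowledge, apart from the 54 genes found in ST486, each taken by the 1 probe that the study lists, and the 6 selected genes. The 6 selected genes are also in the list of tested targets.

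Alternatives were scanner signals normalized here, quantile normalization over 4 channels, a common median, normexp with offset 50, other filters, the mean over a gene's probes, single labellings, and 1.5-fold or 1.1-fold limits. The rule for calls was run on simulated data with known changes and equal noise in both dyes. As the real changes were wider in Cy5, that run does not show how reliable the calls are here. Tools were Python 3.11.15, numpy 2.4.6, pandas 2.3.3, R 4.3.3 and limma 3.58.1.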

Additional observations from a re-analysis of the deposited data

Results flagged for a closer look

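For 5 probes of the named genes, out of 43 looked at, both labellings moved one way in total RNA and both the other way in Ago2-IP RNA. The values given are the mean change in total RNA minus the mean change in Ago2-IP RNA, on the log2 scale, and none of these differences was tested. JARID2 was higher in total RNA (0.31 and 0.56) and lower in Ago2-IP RNA (−0.24 and −0.46), a difference of 0.79. DET1 differed by 0.69, with 0.25 and 0.43 in total RNA and −0.34 and −0.37 in Ago2-IP RNA. HOMEZ differed by 0.63 at 1 of its 2 probes, with 0.17 and 0.03 in total RNA and −0.30 and −0.77 in Ago2-IP RNA. The study selected these 3 genes from Ago2-IP RNA of another line, ST486. AGO2 differed by −0.31, with small changes in total RNA (−0.03 and −0.11) and 0.25 and 0.24 in Ago2-IP RNA. ZNF280C differed by −0.75, being lower in total RNA.

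A further 588 probes were well above background in all 4 total RNA channels but are not among the deposited log2 values. Of them, 9 were at least 1.5-fold higher and 2 lower in both labellings, in scanner signals normalized here. At the same limit 14 and 90 of all 16065 deposited probes were called. The 6 with a gene name are given by their mean change, with the changes in Cy3 and Cy5 in parentheses. Some had unlike signals in the 2 dyes, such as NOVA2 at 4.65 (Cy3) and 6.37 (Cy5) in EV. NFAT5, a transcription factor of osmotic stress, changed by −1.28 (−0.81 and −1.75). The growth factor gene HGF changed by 0.76 (0.79 and 0.73) and the integrin subunit gene ITGB7 by 0.80 (0.63 and 0.97). ZNF697 changed by 1.07 (1.52 and 0.61), ADAMTS10 by 0.61 (0.59 and 0.62) and the splicing regulator NOVA2 by 0.63 (0.62 and 0.63).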

How the results depend on the processing

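Counts of called probes moved by over 1.5 times under several alternatives, while the median size of the change did not. List medians often moved by that much too, several of those near 0 changing sign. With normexp the counts were 50 higher and 35 lower, with all probes above background in at least 2 channels 476 and 695, and as means over a gene's probes 37 and 172 genes. At 1.5-fold 14 and 90 probes were called, and at 1.1-fold 1710 and 2024. Above background in all 4 channels, 201 were lower. With 1 labelling alone the counts ran from 381 to 1512 higher and from 649 to 1857 lower, and the median size of the change from 0.11 (Cy3) to 0.18 (Cy5). As medians of the dye-averaged change, the DNA replication list was no longer shifted with normexp (0.0994, from 0.11) or with means over genes (0.118), the hypoxia list with normexp (−0.049), and the MHC class II list with a common median (−0.054). The myeloid list was lost with normexp (−0.0955) and without the filter on agreement (−0.45). A shift appeared for ribosomal protein genes with a common median (0.20) and for PRC2 genes in Cy5 alone (−0.13). Of the shifts in these first 3 lists and in histones, each kept its direction and none was lost in a single labelling. Normexp adds 50 to each signal, which narrows the changes of dim probes. The cause of the losses, with normexp or with the other alternatives, was not tested. Of the 29 named genes 8 were called under every alternative (APPL1, C2CD4B, H3C12, MYCBP2, NAP1L1, RPS12, TUBA4A and ZNF280C). RAD23B reversed with normexp (−0.027) and as a mean over its probes (−0.053). No paired analysis was possible because each group is 1 RNA sample and the replicate numbers are dyes. Of the 355 lower calls, 154 were dim in at least 1 channel.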

Other observations

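Among groups not described above, the genes of the unfolded protein and amino-acid stress response had 44 probes with medians of −0.04 (Cy3) and −0.06 (Cy5). Of these, 9 were higher and 23 lower in both labellings (20.5% and 52.3%, against 32.5% and 33.7% of all probes). The 3 called, all lower (against 2.21% of all), were CTH, of cysteine synthesis, SEL1L, of protein disposal from the endoplasmic reticulum, and SESN2, a stress sensor. Numbered zinc finger genes, the largest list, had 259 probes with medians of 0.00 and 0.01, and 8 were called lower and 1 higher, against 2.21% and 0.927% of all probes. Of the 8, ZNF157 and ZNF280C were above background in all 4 channels. Solute carrier genes had 195 probes with medians of −0.02 and −0.01 and 4 called, all lower, against 2.21% of all probes. CNOT6L, a catalytic subunit of the CCR4-NOT deadenylase, was called lower (−1.21 and −1.60) with 2 channels above background. It was the only one called among 76 probes for mRNA decay, against 2.21% of all probes called lower.

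The labelling spike-ins, RNAs of known amount added to each sample, had median changes of 0.06 (Cy3) and 0.07 (Cy5) relative to the median of the deposited probes, and 5 of 10 were higher in both labellings. The median of their change averaged over both dyes was 0.12. The histone and the DNA replication list had 0.11 each in quantile-normalized values. With channels set to a common median these lists had 0.21 and 0.15.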
